A study of Mus musculus with 6 samples.

Results

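The cytosolic ribosomal protein genes, which encode the proteins of the cell's main ribosomes, were taken as the genes whose single symbol in the array annotation is Rpl or Rps followed by a number, with or without a, l or x, plus Rplp0 to Rplp2 and Rpsa. Where a gene had several probe sets, the one with the highest mean over the 6 arrays stood for it. This gave 64 of the 22180 genes with a single-symbol probe set, 40 of the large and 24 of the small subunit, with 104 single-symbol probe sets between them. Of the 64, 57 are among 77 symbols of the standard mammalian set, and 7 are copies or paralogs (Rpl3l, Rpl6l, Rpl10l, Rpl32l, Rpl39l, Rps4l and Rps27l). The RefSeq table lists Rpl6l and Rps4l as pseudogenes. The other 20 standard symbols are not members. Of these, 12 occur only in probe sets with several symbols, so that their signal belongs to no single symbol, and Rps3a is annotated as Rps3a1, whose form falls outside the rule. Processed copies of ribosomal protein genes are many and near-identical, so signal of a member can include theirs.

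The genes were measured in MEP, the progenitors in marrow that form both megakaryocytes and erythrocytes. There were 6 arrays, 3 of mice labelled T-bet knockout and 3 of mice labelled wild type, each from a different animal of the C57BL/6 strain according to the study's design text and labels. Tbx21 encodes T-bet, a T-box transcription factor best known for directing T helper 1 and natural killer cells. The cells were stained with antibodies and flow-sorted from fresh marrow. Not given in the sources used here are how the knockout allele was made, which antibodies set the gate, and the age and sex of the mice.

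Ribosomes are built from ribosomal RNA and a fixed set of proteins, one copy of nearly each protein per particle, which fall into a large and a small subunit. Cells keep the mRNAs of these proteins at similar amounts and control most of them together at translation, through a pyrimidine tract at the very start of the mRNA (the TOP motif). Erythroid precursors are known to depend on them strongly. In humans, loss of 1 copy of several of these genes causes Diamond-Blackfan anaemia, in which red cell precursors fail early, and stalled ribosome assembly lets RPL5 and RPL11 bind MDM2 and raise p53.

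The values are log2 signals of 41345 probe sets, with array medians of 6.44 to 6.53. The signal of Tbx21 averaged 6.49 ± 0.10 in knockout arrays and 6.58 ± 0.04 in wild-type arrays (SD, n = 3 each), and the groups overlapped, so the targeted gene gave no check of the labels. The signals of Xist and of the Y-linked gene Eif2s3y divided the arrays in a way that does not match their description as single mice. Knockout replicates 1 and 2 and wild-type replicate 1 carried both, knockout replicate 3 and wild-type replicate 3 only Eif2s3y, and wild-type replicate 2 only Xist. Of 11 measured MEP and erythroid markers, 0 lay in the dimmest 30% of probe sets. Kit, the stem cell factor receptor, averaged 12.01 ± 0.02 in knockout arrays and 12.01 ± 0.06 in wild-type arrays. Gata1, an erythroid transcription factor gene, averaged 10.97 ± 0.03 in knockout arrays and 10.96 ± 0.05 in wild-type arrays. Of 6 megakaryocyte markers 5 had a difference below 0, with a median of -0.11, and 1, Itga2b (integrin alpha IIb of platelets), had an unadjusted limma p under 0.05, with an adjusted p of 1. Itga2b averaged 7.25 ± 0.10 in knockout arrays and 7.59 ± 0.23 in wild-type arrays, without overlap, and Pf4, the platelet factor 4 gene, differed by -0.48 (SE 0.21). Of 6 stem and multipotent progenitor markers 5 lay below 0 and of 7 macrophage markers 6, with 0 at an unadjusted p under 0.05. Of 7 B cell markers 5 lay above 0, with a median of 0.16. Above 0 were also 4 of 7 T and natural killer cell markers, 5 of 10 granulocyte and monocyte markers and 2 of 6 mast cell and basophil markers. Of these markers 0 had an unadjusted limma p under 0.05. The part of the marker lists in the members' values was not tested. Array means of the 7 B cell markers ran from 6.46 to 6.99 in knockout and from 6.27 to 6.66 in wild-type arrays. Those of 10 granulocyte and monocyte markers ran from 5.81 to 6.14 in knockout and from 5.83 to 6.03 in wild-type arrays. Fewer cells of a type and less RNA per cell cannot be told apart in such samples.

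The start sites of the members are shown because the TOP motif is the feature through which their mRNAs are known to be controlled together. Of the 64 genes, 49 were matched in the part of the RefSeq promoter table (GRCm38.p6) that was used. A C at the annotated start followed by at least 4 C or T bases was found in 11 of these 49 genes (22.4%). Among the 27025 genes used from the table the share was 3.01%. These counts depend on the exact annotated base. The annotated start of Rpl7a, for example, lies inside a run of C and T but is a T, so it was not counted. A run of 8 C or T bases within 20 bases on either side of the start occurred in 51.0%, against 18.4% of the genes used. By subunit, 7 of 29 large-subunit and 4 of 20 small-subunit genes started on the tract. Windows of 15 bases on either side of the start are given below, with the tract that begins at the start in capitals. Rpl15, Rpl35 and Rps6 lie on chr14:18270972-18271001, chr2:39005117-39005146 and chr4:86857353-86857382, all on the minus strand. Rps10, Rps18 and Rps27 lie on chr17:27635230-27635259, chr17:33955651-33955680 and chr3:90213634-90213663, also on the minus strand. Rplp2, a stalk protein gene, lies on the plus strand at chr7:141447636-141447665. The last line, Rpl9 at chr5:65391417-65391446 on the minus strand, has no such tract at its annotated start.
Rpl15: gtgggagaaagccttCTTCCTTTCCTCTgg
Rpl35: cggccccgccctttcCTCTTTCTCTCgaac
Rps6: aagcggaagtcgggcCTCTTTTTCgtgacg
Rps10: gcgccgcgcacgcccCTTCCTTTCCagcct
Rps18: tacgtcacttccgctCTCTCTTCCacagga
Rps27: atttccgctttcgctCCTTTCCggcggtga
Rplp2: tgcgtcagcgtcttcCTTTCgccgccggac
Rpl9: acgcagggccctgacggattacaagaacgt

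Promoters of a part of the members also hold the letters CCGGAAG, the core recognised by ETS family factors such as GABPA. Searched on both strands over 250 bases before and 50 after the start, they were present in 22 of 49 members (44.9%). Among the genes used from the table the share was 9.93%. AAGATGG, letters of the YY1 motif, was present in 6 of 49 (12.2%), against 7.28%. Both words can overlap other motifs, and a match is not a bound site. In the stretches from 70 bases before to 15 after the start shown here, CCGGAAG is in capitals. Rpl38 lies on the plus strand at chr11:114668510-114668594 and Rps10 on the minus strand at chr17:27635230-27635314.
Rpl38: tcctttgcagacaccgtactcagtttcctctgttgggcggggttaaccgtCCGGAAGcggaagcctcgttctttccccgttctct
Rps10: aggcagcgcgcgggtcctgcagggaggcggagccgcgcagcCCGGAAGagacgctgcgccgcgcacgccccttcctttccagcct

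The question of the comparison is whether loss of T-bet shifts the expression of the ribosome's protein genes in these progenitors. No member passed limma's test at an adjusted p of 0.05 (0 of 64), and none passed at an unadjusted p of 0.05. Over all probe sets 0% passed the adjusted and 4.92% the unadjusted threshold (2033 of 41345), 2.97% with a higher and 1.95% with a lower value in knockout arrays. Over the 22180 genes with 1 probe set each, 3.13% passed the unadjusted threshold, and over the 3097 probe sets with a mean over 10, 1.03%. The smallest unadjusted limma p among members was 0.0639, for Rpl9. When replicate number was added as a block, 2 members, Rpl9 and Rps23, passed the unadjusted threshold, where 6.51% of all probe sets passed it in the same fit. Their limma adjusted p in that fit was 0.766 each. The median difference, knockout minus wild type, was 0.01 on the log2 scale over the 64 genes, with 36 above and 28 below 0, and 0.01 over all probe sets, of which 51.7% were above 0. Over the 22180 genes with 1 probe set each the median was -0.0045, with 48.2% above 0. Leaving out wild-type replicate 2 gave the members a median of 0.05, and leaving out wild-type replicate 3 gave -0.02, on a scale where the 6 array medians of the members had a pooled within-group SD of 0.05.

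The subunits had nearly equal medians. Large-subunit genes had a median difference of 0.01, with 22 of 40 above 0 and a range of -0.29 to 0.22. Small-subunit genes also had a median of 0.01, with 14 of 24 above 0 and a range of -0.18 to 0.38. The large-subunit median minus the small-subunit median was -0.0039, smaller than the pooled within-group SD of 0.011 for that quantity. It was -0.019 without wild-type replicate 1 and -0.022 with all single-symbol probe sets of a gene averaged. Among members with a mean signal over 10 the large-subunit median was 0.02 over 23 genes and the small-subunit median was -0.0031 over 11 genes.

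**Figure D1:**
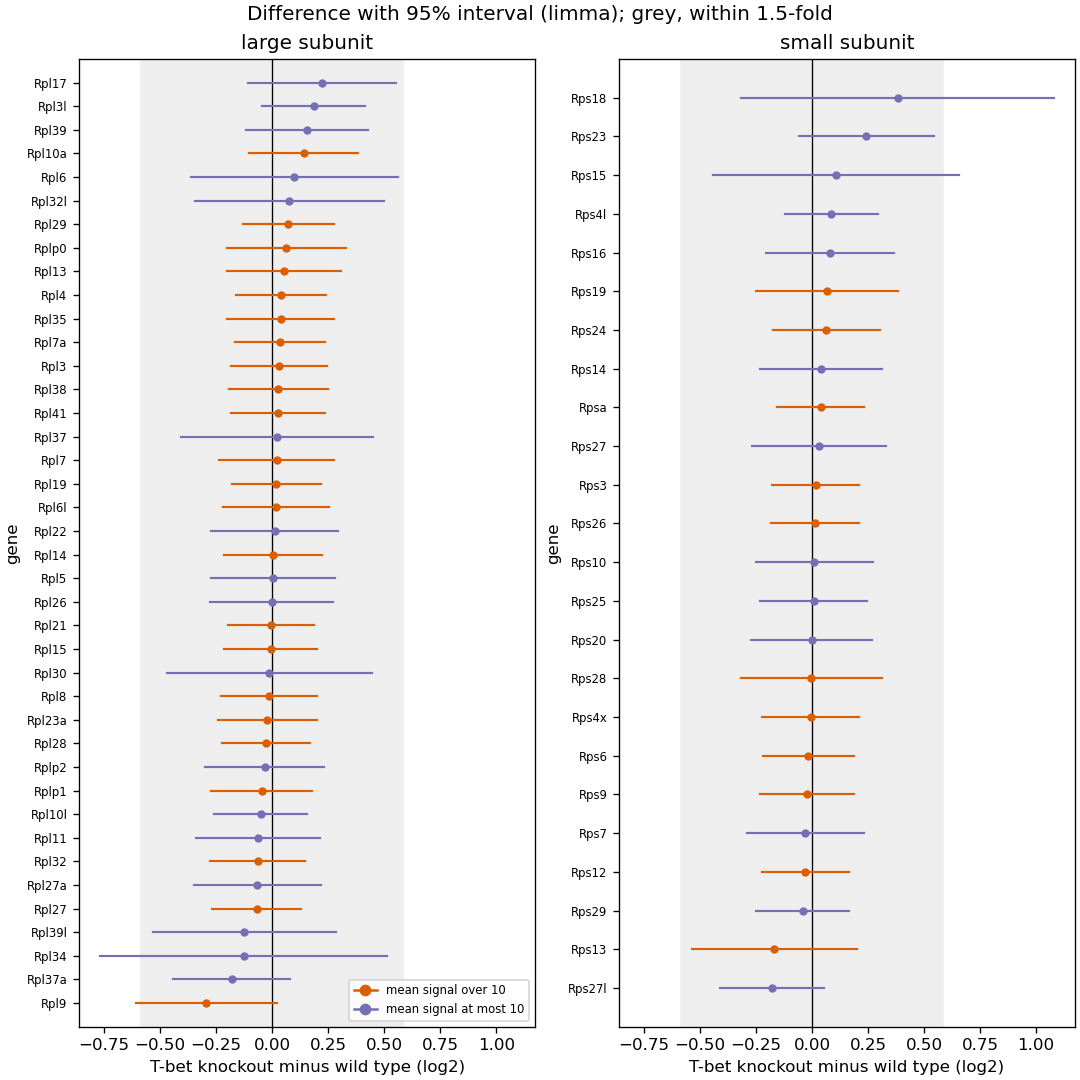
Difference in log2 signal, T-bet knockout minus wild type, of each ribosomal protein gene (dot) with limma's 95% interval (line), n = 3 arrays a group, large subunit on the left and small on the right, orange for a mean signal over 10 and purple for a lower one. The grey band marks differences within 1.5-fold. All 64 intervals include 0 and 60 lie within the band, with Rps18, Rps15, Rpl34 and Rpl9 reaching outside it.

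For 60 of 64 members (93.8%) limma's 95% interval held no difference beyond 1.5-fold, against 72% of all probe sets and 85.9% of the 22180 genes with 1 probe set each. For 63 (98.4%) it held none beyond 2-fold, against 92.9% of all probe sets and 98.0% of those genes. For 23 (35.9%) it held none beyond 1.2-fold, against 9.1% of all probe sets and 13.4% of those genes. Intervals were narrower at strong signal: 20 of the 34 members with a mean over 10 (58.8%) were bounded within 1.2-fold, against 33.9% of the other probe sets with such a mean. Within 1.5-fold these shares were closer, at 97.1% of such members and 94.6% of the other probe sets, and within 2-fold 100% and 99.0%. Of the 30 members with a mean of at most 10, 3 were bounded within 1.2-fold. These bounds hold for the signal and not directly for the mRNA. The 60 include probe sets near or below the array medians, those of Rplp2 (mean 6.55), Rpl27a (6.51), Rps16 (6.16) and Rpl10l (4.47). At such means a narrow interval cannot show a stable mRNA. Whether the signal of the brightest members, such as Rpl21 (mean 13.72), still follows the amount of mRNA was not tested. Absolute differences were under 0.1 in 51 members. The 4 genes whose intervals reached beyond 1.5-fold were Rps18 (-0.32 to 1.08), Rps15 (-0.44 to 0.66), Rpl34 (-0.77 to 0.51) and Rpl9 (-0.61 to 0.02).

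Rpl9, a protein of the large subunit near its stalk base, gave the lowest difference. It read 10.44, 10.36 and 10.19 in knockout replicates 1 to 3, against 10.58, 10.84 and 10.46 in wild-type replicates 1 to 3. The knockout values all lay below the wild-type ones, knockout replicate 1 only just below wild-type replicate 3. The difference was -0.29 (SE 0.13, limma adjusted p = 1, exact permutation p = 0.1, the smallest that 3 against 3 allows). A further probe set of Rpl9 gave 0.04 (interval -0.17 to 0.26). Its mean was 6.54, near the array medians, against 10.48 for the member probe set, so its small difference says little about the mRNA. Without wild-type replicate 2 the difference of the member probe set was -0.18.

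Of the other large-subunit genes with a difference below 0, Rpl37a, Rpl27 and Rpl32 had the smallest limma p, while Rpl34 and Rpl39l had larger differences than Rpl27 and Rpl32, at -0.13 and -0.12. Rpl37a, a zinc-binding protein of the large subunit, read 8.65, 8.56 and 8.49 in knockout arrays, against 8.58, 8.84 and 8.82 in wild-type arrays. Wild-type replicate 1 lay among the knockout values, and the difference was -0.18 (SE 0.11, limma adjusted p = 1). Rpl27, one of the genes mutated in Diamond-Blackfan anaemia in humans, read 11.34, 11.37 and 11.35 in knockout arrays, against 11.38, 11.42 and 11.47 in wild-type arrays. Its groups did not overlap, and the difference was -0.07 (SE 0.08). Rpl32 differed by -0.07 (SE 0.09), or by -0.03 without wild-type replicate 2.

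The largest differences above 0 in the large subunit were those of Rpl17, Rpl3l, Rpl39 and Rpl10a. Rpl17, a protein at the mouth of the peptide exit tunnel, read 9.28, 9.42 and 9.67 in knockout arrays, against 9.11, 9.41 and 9.20 in wild-type arrays. The groups overlapped, and the difference was 0.22 (SE 0.14, limma adjusted p = 1), or 0.11 without knockout replicate 3. Rpl39, which lines the exit tunnel and is encoded on the X chromosome, read 7.20, 7.03 and 7.23 in knockout arrays, against 7.17, 6.91 and 6.92 in wild-type arrays. Its lowest values thus came from wild-type replicates 2 and 3, with a difference of 0.16 (SE 0.11), or 0.24 without wild-type replicate 1. Rpl10a, a protein of the mobile L1 stalk, differed by 0.14 (SE 0.10), or by 0.08 without wild-type replicate 3, with overlapping groups.

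In the small subunit the widest gap was that of Rps18, a protein in the head of the subunit that takes part in a bridge to the large one. It read 9.13, 8.57 and 8.94 in knockout arrays, against 8.86, 8.78 and 7.85 in wild-type arrays. The groups overlapped, with wild-type replicate 3 far below the other arrays, and the difference of 0.38 (SE 0.29) was 0.06 without that array. A pair of further probe sets of Rps18 gave -0.03 and -0.04. Their means of 6.63 and 7.13 lay below the 8.69 of the member probe set, so their small differences say little.

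Rps23, a protein of the decoding centre, read 8.24, 8.47 and 8.57 in knockout arrays, against 8.06, 8.16 and 8.32 in wild-type arrays. In every numbered pair the knockout array was higher, while the groups overlapped, and the difference was 0.24 (SE 0.13, limma adjusted p = 1). Rps13 read 10.83, 10.51 and 10.46 in knockout arrays, against 10.72, 11.002 and 10.58 in wild-type arrays. The groups overlapped, and its difference of -0.17 (SE 0.15) was -0.05 without wild-type replicate 2. Rps16, Rps12 and Rps29 differed by 0.08, -0.03 and -0.04. Leaving out 1 array put Rps16 between 0.03 and 0.17 and Rps29 between -0.07 and -0.01.

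**Figure D2:**
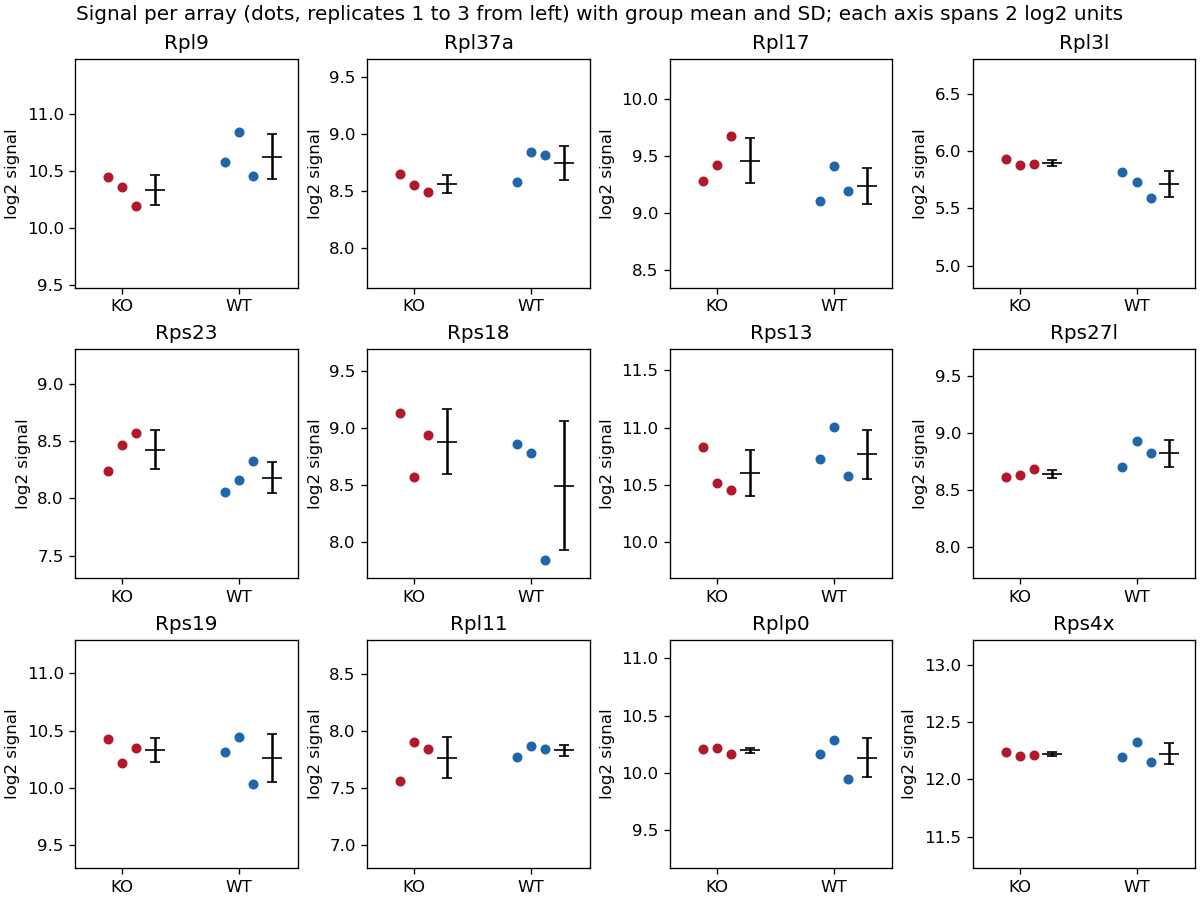
Log2 signal of 12 ribosomal protein genes on each array (dots, replicates 1 to 3 from left; KO, T-bet knockout in red; WT, wild type in blue) with the group mean and SD (black, n = 3). Every axis spans the same number of log2 units. Rpl9 and Rps27l show knockout values below all wild-type values and Rpl3l values above them, while wild-type replicate 3 of Rps18 stands apart at 7.85.

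Genes mutated in Diamond-Blackfan anaemia lay on both sides of 0. Of the 20 listed genes 15 were measured, 7 with a difference above 0 and 8 below, a median of -0.0016 and a range of -0.07 to 0.07. All 15 intervals lay within 1.5-fold and 0 had an unadjusted p under 0.05. Rps19, the gene most often mutated in the human disease, read 10.42, 10.22 and 10.34 in knockout arrays, against 10.31, 10.44 and 10.03 in wild-type arrays. The lowest value was wild-type replicate 3 and the highest wild-type replicate 2, and the difference was 0.07 (SE 0.13, interval -0.25 to 0.38). Rps24 and Rps26, parts of the same subunit that are also mutated in the disease, differed by 0.06 (interval -0.17 to 0.30) and 0.01 (-0.18 to 0.21). Without wild-type replicate 3 the difference of Rps24 was 0.0047, and without wild-type replicate 2 it was 0.12.

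Rpl5 and Rpl11, which bind the 5S rRNA and MDM2, gave small differences as well. Rpl5 read 8.37, 8.46 and 8.26 in knockout arrays, against 8.23, 8.53 and 8.31 in wild-type arrays, and differed by 0.0039 (SE 0.12). Rpl11 read 7.56, 7.90 and 7.84 in knockout arrays, against 7.77, 7.87 and 7.84 in wild-type arrays, where knockout replicate 1 alone was low. Its difference was -0.06 (SE 0.12). Among 8 measured partners and targets of the p53 pathway the median difference was -0.05, with 1 above 0 and 7 below and 0 at an unadjusted p under 0.05. Mdm2, the ubiquitin ligase of p53, differed by 0.12 (SE 0.12) and Cdkn1a, a cell cycle inhibitor induced by p53, by -0.01 (SE 0.17).

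The remaining Diamond-Blackfan genes gave differences between -0.04 and 0.04. They were 0.04 for Rpl35, 0.03 for Rps27, 0.01 for Rps10, -0.0069 for Rpl15 and -0.0031 for Rps28. Rpl26 and Rps20 gave -0.0016 and -0.0019, and Rps7 gave -0.03.

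The proteins of the stalk, which recruits elongation factors, gave small differences. Rplp0, its base, read 10.21, 10.21 and 10.17 in knockout arrays, against 10.17, 10.28 and 9.94 in wild-type arrays, and differed by 0.06 (SE 0.11). Rplp1 and Rplp2, which bind to Rplp0 as pairs, differed by -0.05 (SE 0.09) and -0.03 (SE 0.11). The probe set of Rplp2 averaged 6.55, near the array medians, against 12.46 for Rplp1, so its small difference cannot show a stable mRNA. Other standard members as low were Rpl27a (6.51), Rps15 (6.38) and Rps16 (6.16). Wild-type arrays of Rplp0 spanned a wider range (SD 0.17) than the knockout arrays (SD 0.02).

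Rpsa, the laminin receptor precursor and a protein at the back of the small subunit, read 12.52, 12.55 and 12.52 in knockout arrays, against 12.49, 12.51 and 12.47 in wild-type arrays. The groups did not overlap, and the difference was 0.04 (SE 0.08, limma adjusted p = 1), and a further probe set of Rpsa gave -0.05. In all, the groups of 5 members did not overlap (Rpl3l, Rpl9, Rpl27, Rps27l and Rpsa), against 9.26% of all probe sets. Of these members 2 were higher (4.62% of all probe sets) and 3 lower in knockout arrays (4.63% of all probe sets). Rps4x, encoded on the X chromosome, read 12.24, 12.20 and 12.21 in knockout arrays, against 12.19, 12.33 and 12.15 in wild-type arrays, and differed by -0.0066 (SE 0.09). The 5 members encoded on chromosome 11, which also carries Tbx21 (Rpl19, Rpl23a, Rpl26, Rpl27 and Rpl38), differed by -0.07 to 0.03.

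Paralogs that replace or accompany a standard protein in some tissues or under stress were examined apart. Rpl3l, known from muscle and heart as the counterpart of Rpl3, read 5.93, 5.88 and 5.89 in knockout arrays, against 5.82, 5.73 and 5.59 in wild-type arrays. The groups did not overlap, and the difference was 0.19 (SE 0.10, limma adjusted p = 1, exact permutation p = 0.1). Its mean lay just above the dimmest 30% of probe sets (bound 5.70), and Rpl3 itself differed by 0.03. Rps27l, a paralog of Rps27 that p53 induces, read 8.61, 8.63 and 8.68 in knockout arrays, against 8.70, 8.93 and 8.83 in wild-type arrays. All knockout values were the lower ones, and the difference was -0.18 (SE 0.10, limma adjusted p = 1), or -0.12 without wild-type replicate 2. The testis paralogs Rpl10l and Rpl39l differed by -0.05 and -0.12, and Rps4l, which the RefSeq table lists as a pseudogene, by 0.09. Rpl10l was the only member among the dimmest 30% of probe sets, with a mean of 4.47. Rpl22l1 and Rpl7l1, whose symbols fall outside the rule, differed by 0.01 and -0.14, and Rpl22l1 was also among the dimmest 30%, with a mean of 5.36.

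Beside the genotypes, the members moved together among the wild-type arrays. In wild-type replicate 2, 53 of 64 members (82.8%) lay above their own mean over the 6 arrays, against 47.9% of all probe sets. It was the highest array for 29 members, and for 5346 of all 41345 probe sets. In wild-type replicates 1 and 3 the share was 28.1% each, against 52.1% and 50.9% of all probe sets. Among probe sets outside the rule with a mean over 10 it was 36.8% and 51.2%. These were the lowest arrays for 20 and 21 members, and for 6016 and 7025 of all 41345 probe sets. In knockout replicates 1 to 3 the shares were 42.2%, 53.1% and 67.2%. Median deviations from the gene's own mean were -0.02, 0.01 and 0.03 in knockout replicates 1 to 3, against -0.03, 0.08 and -0.04 in wild-type replicates 1 to 3. Both subunits showed it: wild-type replicate 2 had a median deviation of 0.07 for large-subunit and 0.09 for small-subunit genes.

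**Figure D3:**
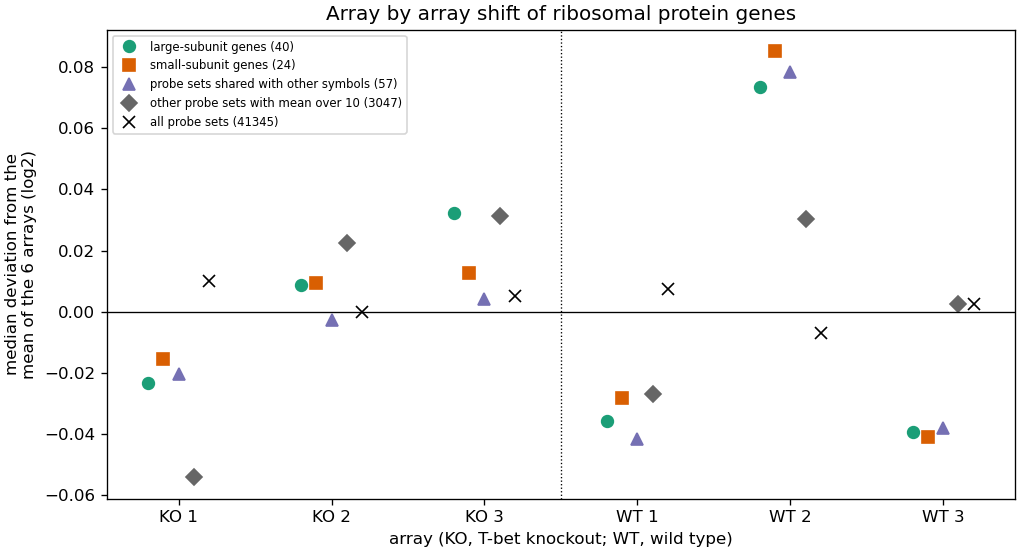
Median deviation of log2 signal from each probe set's mean over the 6 arrays, by array (KO, T-bet knockout; WT, wild type), for large- and small-subunit genes, probe sets that share a ribosomal protein symbol with other symbols, other probe sets with a mean over 10 and all probe sets. The ribosomal sets stand highest on wild-type replicate 2, at 0.07 to 0.09, and at about -0.04 on wild-type replicate 3.

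The 57 probe sets that hold a standard ribosomal protein symbol beside other symbols, which did not enter the member list, also stood highest in wild-type replicate 2. Their median deviations were -0.02, -0.0026 and 0.0041 in knockout replicates 1 to 3, against -0.04, 0.08 and -0.04 in wild-type replicates 1 to 3, and 86.0% were above their mean in wild-type replicate 2. Probe sets outside the rule with a mean over 10 had 65.7% above their mean in that array and a median deviation of 0.03. They stood at 0.0026 in wild-type replicate 3, where the members stood at -0.04. Wild-type replicate 2 was also the array with Xist but without Eif2s3y signal, and its B cell markers had a median deviation of -0.21, equal to that of knockout replicate 2. The part of these in the members' shift was not tested.

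The spread of the members was the wider one in wild-type arrays. It includes the shift between arrays described above, so it is not independent of that shift. Median deviations were -0.03, 0.08 and -0.04 in wild-type replicates 1 to 3, against -0.02, 0.01 and 0.03 in knockout replicates 1 to 3. The SD over 3 arrays was larger in wild-type than in knockout arrays for 47 of 64 members (73.4%), against 42.7% of all probe sets, and the median SD was 0.059 in knockout and 0.115 in wild-type arrays. Over all probe sets the median SD was 0.161 in knockout arrays, against 0.138 in wild-type arrays. Among small-subunit members with a mean over 10 the wild-type SD was the larger in 11 of 11, and among those with a mean of at most 10 in 7 of 13. Over both subunits it was the larger in 29 of 34 members with a mean over 10 and in 18 of 30 with a lower mean. These counts were made after the values were seen and carry no test.

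**Figure D4:**
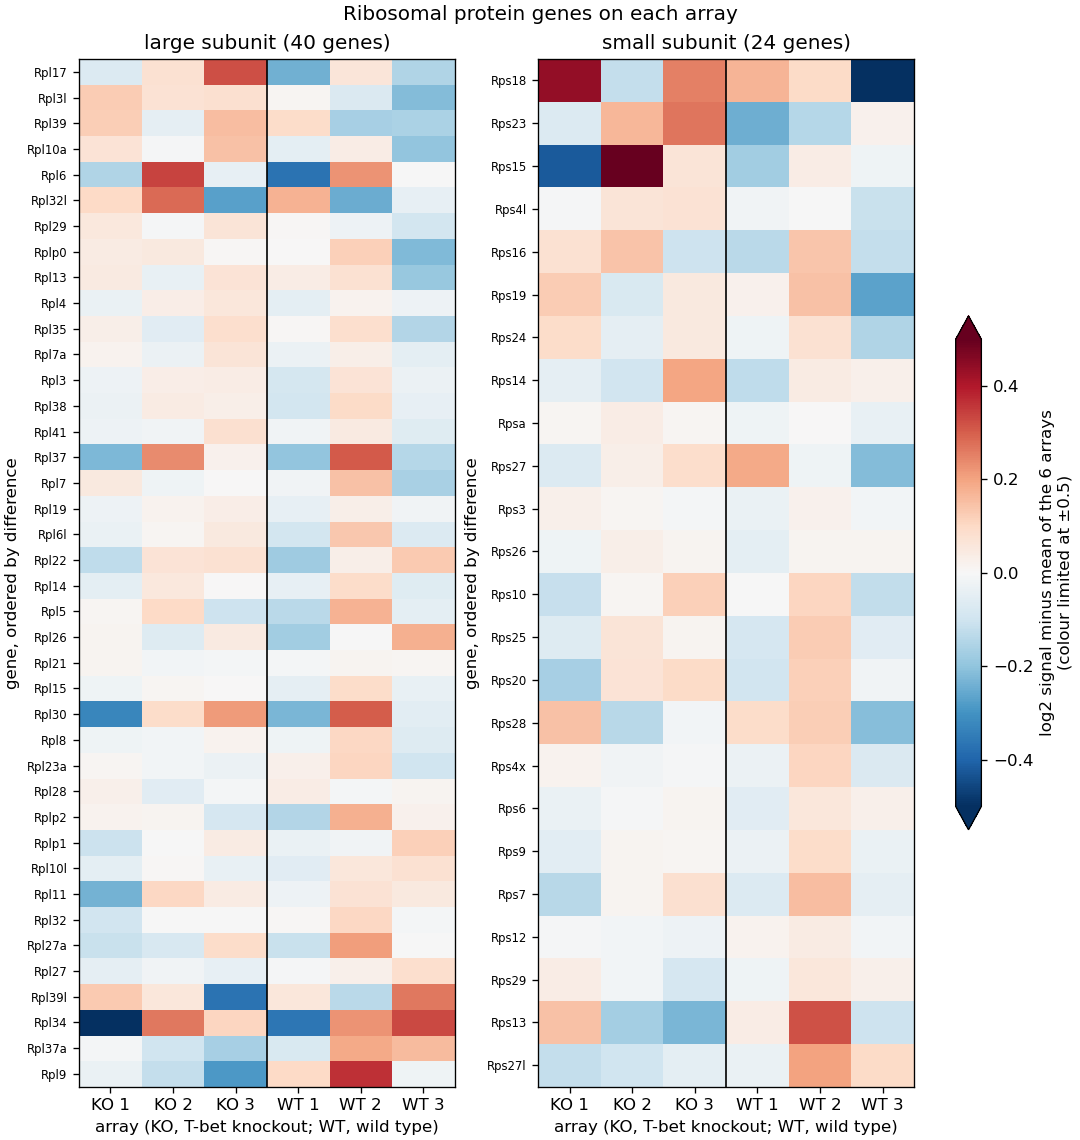
Log2 signal of each ribosomal protein gene minus its mean over the 6 arrays, in colour, for the large subunit (left) and small subunit (right), with T-bet knockout arrays (KO) before wild-type arrays (WT) and genes ordered by their difference. Red marks values above the gene's mean, as for 53 of 64 genes in WT 2, and blue values below it, as for most genes in WT 1 and WT 3.

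The members were then divided by signal. The 30 genes with a mean of at most 10 had median deviations of -0.07, 0.07 and 0.07 in knockout replicates 1 to 3, against -0.09, 0.08 and -0.02 in wild-type replicates 1 to 3, so both replicates numbered 1 were low. The 34 genes with a mean over 10 had 0.0018, -0.01 and 0.01 in knockout replicates, against -0.02, 0.08 and -0.05 in wild-type replicates. Low values in both replicates numbered 1 were seen outside the members too. Other probe sets with a mean over 10 had median deviations of -0.05 in knockout and -0.03 in wild-type replicate 1, assembly factors of ribosomes -0.07 and -0.05, RNA polymerase I genes -0.06 and -0.05 and initiation factors -0.05 and -0.04, knockout given before wild type. Among the members Rpl34 was an example, at 8.55, 9.37 and 9.21 in knockout arrays and 8.75, 9.33 and 9.43 in wild-type arrays.

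Several probe sets of a gene gave a limited check of the measurement. Of the 64 genes 24 had more than 1 single-symbol probe set, and in 23 of them the values were not all identical; 7 probe sets repeated the values of another. Differences had the same sign within 12 of these 23 genes. In all 23 genes the 95% intervals of the probe sets shared common values, and 0 of the distinct probe sets had an unadjusted limma p under 0.05. The widest disagreements were those of Rps18, with a spread of 0.42, and Rpl9, with 0.34. Their further probe sets had low means, 6.63 and 7.13 for Rps18 and 6.54 for Rpl9. That of Rps26 averaged 5.56, and its interval of -1.22 to 1.34 would overlap almost any other. Agreement or disagreement of such weak probe sets with a brighter one says little.

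Genes around ribosome production, from lists chosen with earlier results known, also gave small differences. Of 68 measured ribosome assembly factors, 21 had a difference above 0 and 47 below, with a median of -0.02 and a range of -0.11 to 0.10. The 15 RNA polymerase I genes, which make ribosomal RNA, had a median of 0.0023, with 8 above 0. Translation initiation factors (32 genes) had a median of 0.01 with 21 above 0, and elongation and termination factors (12 genes) 0.01 with 7 above 0. Genes of mTOR signalling and of other control of TOP mRNAs (23 genes) had a median of 0.02 with 12 above 0. In these 5 lists 0 genes had an unadjusted limma p under 0.05, and every interval lay within 1.5-fold. That threshold was passed by 4.92% of all probe sets, but by only 1.03% of those with a mean over 10. Array means of these lists ran from 9.52 to 11.64. In wild-type replicate 2 their median deviations were 0.08, 0.06, 0.05, 0.05 and 0.04, in the order given.

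**Figure D5:**
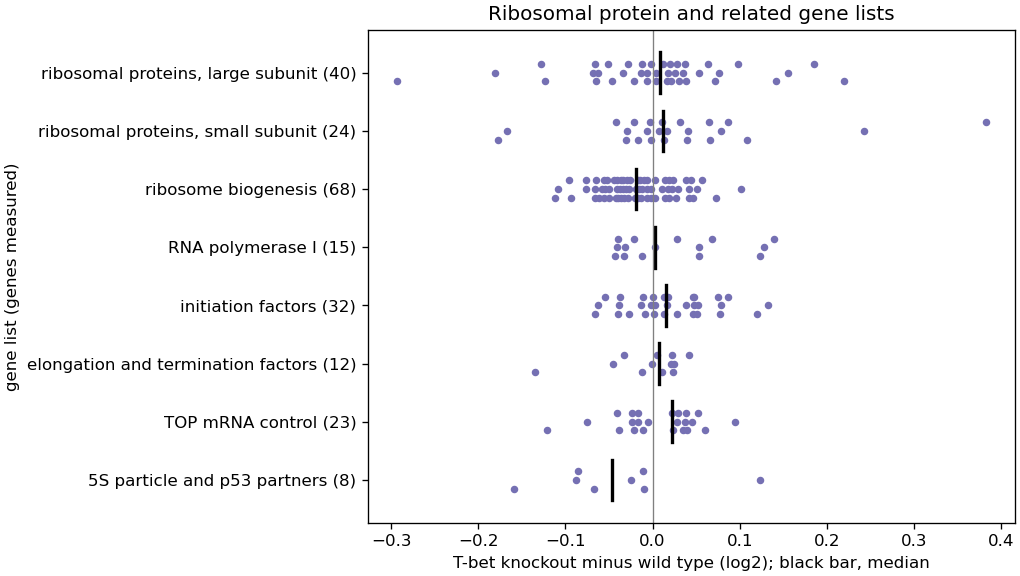
Difference in log2 signal, T-bet knockout minus wild type, of single genes (dots) by list, with the median as a black bar and the number of genes measured in brackets. Dots are staggered only for legibility. Medians lie between -0.05 for the 8 partners of the p53 pathway and 0.02 for genes that control TOP mRNAs.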

How the data were processed

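Per the submitters' processing notes, the authors used Affymetrix Expression Console 1.4.1.46 to make the deposited log2 signals of 41345 probe sets on 6 arrays. Not given in the sources used here: background correction, normalization, summarisation and genome build. The log2 base was inferred from the highest deposited value, 14.2, which exceeds 11.1, the natural log of a 16-bit maximum. Detection calls were not used here, so dim means the 30% of probe sets with the lowest mean. The number of arrays limits precision.

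Groups and replicate numbers came from the sample titles. The array annotation gave 23521 probe sets with 1 symbol, 1814 with several and none for 16010. Symbols were updated through RefSeq gene IDs (23328 matched). Differences, knockout minus wild type, were fitted with limma 3.58.1 in R 4.3.3 over all probe sets with Benjamini-Hochberg adjustment at 0.05, without a block. SE and 95% intervals are limma's. Limma's p-values, SE and intervals rest on a probe set's spread over these 6 arrays and on a variance that limma pools over all probe sets. For Rps12 the group SDs were 0.0087 (knockout) and 0.0268 (wild type), but the SE was 0.0813. For such steady genes the SE is thus not the spread of the gene's own arrays. The fit was tested on simulated data with independent noise, where only recovery of the largest planted change was required. That test does not bear on differences as small as those reported here.

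Members, lists and alternatives were chosen with earlier results of these data known. Named genes were the 4 of smallest p per subunit and direction, and listed stalk, 5S, Diamond-Blackfan, paralog and X-linked genes. Others were named after their values were seen. Same-numbered arrays were treated as pairs in the block alternative because their deviations from group means correlated at 0.285, 0.116 and 0.115 over 1 probe set per gene. Over all probe sets the correlations were 0.212, 0.0569 and 0.140, and over the 64 members 0.627, -0.0150 and -0.00595.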

Additional observations from a re-analysis of the deposited data

How the results depend on the processing

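Over the alternatives no ribosomal protein gene passed an adjusted p of 0.05, and the smallest adjusted p of any of the 35 named genes was 0.698. The count of members at an unadjusted p of 0.05, 0 as reported, was 2 with the replicate block, 1 each with limma-trend (Rpl9), with only probe sets of 1 gene symbol (Rpl9) and with arrays blocked by their sex-linked signals (Rpl17; this drops wild-type replicate 2), and 0 to 1 when 1 array was left out. The replicate block changed no call at the adjusted threshold. Probe sets past adjusted p 0.05 in the whole table numbered 1 after median centring, 1 with array weights, 1 at a threshold of 0.1 and 0 to 2 when 1 array was left out. The median of all members ranged from -0.019 to 0.051 when 1 array was left out, that of the large subunit from -0.021 to 0.050, and that of the small subunit from -0.015 to 0.053. The large-subunit minus small-subunit median ranged from -0.019 to 0.0020 in the same fits, was -0.022 with all probe sets of a gene averaged, and was 0.021 over members with a mean over 10, a choice made after seeing the data. Of 35 named genes 18 kept their direction in every alternative, and of these 15 moved by over 1.5 times when 1 array was left out, the exceptions being Rpl37a, Rps23 and Rps27l. The other 17 had main differences of at most 0.12 in size. A further quantile normalization turned Rpl5 (-0.019), Rps10 (-0.0068), Rps28 (0.0023), Rps27 (-0.0003) and Rps4x (0.014). Array weights turned Rps20 (0.027). The sex-linked block turned Rplp2 (0.050), Rps7 (0.055), Rps28 (0.035), Rpl26 (0.029), Rpl15 (0.038), Rps20 (0.076) and Rps4x (0.043). Averaged probe sets turned Rps28 (0.058) and Rps20 (0.094). Leaving out 1 array gave ranges of -0.030 to 0.14 for Rplp0, -0.079 to 0.0003 for Rplp1, -0.12 to 0.047 for Rplp2, -0.062 to 0.092 for Rpl5 and -0.13 to 0.040 for Rpl11. They were -0.051 to 0.16 for Rps19, -0.077 to 0.040 for Rps7, -0.047 to 0.071 for Rps10, -0.0073 to 0.028 for Rps26, -0.11 to 0.065 for Rps28 and -0.068 to 0.13 for Rps27. For Rpl26 they were -0.089 to 0.087, for Rpl15 -0.031 to 0.037, for Rps20 -0.051 to 0.080, for Rpl35 -0.026 to 0.088, for Rpl39l -0.22 to 0.031 and for Rps4x -0.044 to 0.046. The cause of these turns was not tested.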

Other observations

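Probe sets annotated only as pseudogenes of ribosomal protein genes are left out by the member rule. Of 15 such probe sets 9 had a difference above 0 and 6 below, with a median of 0.06 and 1 at an unadjusted limma p under 0.05 (0 adjusted, where 4.92% of all probe sets passed the unadjusted threshold). Their median deviations were 0.20, -0.06 and 0.0071 in knockout replicates 1 to 3, against 0.03, 0.09 and -0.20 in wild-type replicates 1 to 3. As for the members, wild-type replicate 2 was most often the highest array (7 of 15) and wild-type replicate 3 most often the lowest (7 of 15). The highest median was that of knockout replicate 1, where 14 of 15 lay above their mean, and the lowest that of wild-type replicate 3.

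Fau, which encodes a small-subunit protein fused to a ubiquitin-like domain under a symbol outside the rule, read 11.58, 11.52 and 11.71 in knockout arrays, against 11.53, 11.78 and 11.49 in wild-type arrays, and differed by 0.0042 (SE 0.12). It too was highest in wild-type replicate 2 and lowest in wild-type replicate 3. Rps3a1, the small-subunit gene whose symbol falls outside the rule, differed by -0.03 (SE 0.10). Members whose annotated start lies on a pyrimidine tract had a median difference of 0.01 over 11 genes, and those without it 0.01 over 38 genes.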
